A study of Mus musculus with 12 samples.

Results

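The 33 genes described here encode the enzymes and regulators of cholesterol and fatty acid synthesis in mouse. They were chosen by symbol from the 78275 gene IDs of the table, each symbol matched 1 ID, and all 33 passed the filter on low counts. The sterol arm has 19 genes, from Acat2 to Dhcr7 with the sterol carrier Stard4. The fatty acid arm has 9 genes, and the other 5 are Srebf1, Srebf2, Scap, Insig1 and Insig2, which govern both arms. C2C12, a mouse myoblast line, was transfected with a control siRNA (genotype label WT) or with one directed at Zfp143, which encodes the transcription factor ZNF143 (genotype label ZNF143 knockdown). Cells were taken 24 hours later from growth medium with 10% fetal bovine serum (uninduced), or after 5 further days in medium with 1% horse serum (induced), so induced and uninduced cells differ in serum and in time since transfection as well as in differentiation. Each of the 4 groups has 3 polyadenylated RNA libraries, all given batch 1. No label ties the libraries of a group to cultures of their own, so each p-value rests on library-to-library spread that may be technical.

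Cholesterol is made from acetyl-CoA through mevalonate, squalene and lanosterol, and long fatty acids are made from acetyl-CoA through malonyl-CoA, then elongated and desaturated. Both pathways are switched on by SREBP transcription factors, which are made as membrane proteins of the endoplasmic reticulum. SCAP escorts them to the Golgi, where proteases release the active part, and INSIG proteins hold SCAP back when sterols are plentiful. SREBP2 acts mainly on sterol genes and SREBP1 mainly on fatty acid genes, with overlap, and SREBP proteins are often helped at promoters by the CCAAT-binding factor NF-Y.

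The libraries held 17.9 to 19.1 M estimated counts, apart from induced knockdown replicate 1 with 13.5 M. That library and uninduced control replicate 3 stood apart. The latter had 6.02% of its counts on mitochondrial genes, where its group otherwise had 2.63% and 2.90%. For many results of the 33 genes, values without these libraries are also given. The siRNA check gave a Zfp143 log2 fold change of -1.41 in uninduced cells (95% confidence interval -1.80 to -1.02; edgeR adjusted p = 6.12e-05) and of -0.18 in induced cells (-0.57 to 0.20; 0.646), so a lower target transcript was not detected on day 5. Zfp143 stood at 23.2, 27.8 and 39.8 CPM in uninduced control and 12.2, 11.9 and 10.1 CPM in uninduced knockdown libraries. Its highest control was replicate 3, which adds to the size of the fall, and no value without that replicate is given. The myoblast markers Myod1, Myf5 and Des had counts in all 4 groups, but not at one level. Myf5 was at 44.3 to 64.1 CPM in uninduced control and 14.8 to 18.8 CPM in uninduced knockdown libraries. Mean Des was 304 CPM in uninduced control, 372 CPM in uninduced knockdown, 1322 CPM in induced control and 841 CPM in induced knockdown. Mean Myod1 was 6.92, 6.53, 55 and 48.5 CPM in the same order. Their part in the results was not tested. Libraries did not keep strand, and by the GENCODE M21 annotation 9 of the 33 genes share exon bases with a gene on the other strand. Among these are Fdft1 with Ctsb, Cyp51 with Akap9, Srebf1 with Rai1 and Acss2 with Gss and Ggt7, whose reads cannot be told apart there.

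The 33 genes took 0.194% ± 0.0375 of the counts in uninduced control libraries (SD, n = 3), 0.196% ± 0.00622 in uninduced knockdown, 0.311% ± 0.00726 in induced control and 0.5001% ± 0.00503 in induced knockdown libraries. Uninduced control replicates 1 and 2 had 0.223% and 0.206%, above the 0.189%, 0.1999% and 0.2002% of uninduced knockdown. Replicate 3, which stood apart, had 0.152%, so the near-equal means of these groups rest on that library. Per transcript length, Scd2, a stearoyl-CoA desaturase, had the highest mean level over the 12 libraries at 245 TPM, and Acss2, which makes acetyl-CoA from acetate, the lowest at 5.41 TPM. In the sterol arm the order changed with the group. Sqle, the squalene epoxidase gene, had the highest mean in uninduced control (55.9 ± 14.6 TPM; SD, n = 3) and uninduced knockdown (65.7 ± 3.61 TPM). Fdps, the farnesyl diphosphate synthase gene, was highest in induced control (122 ± 4.76 TPM) and induced knockdown (264 ± 14 TPM).

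The arms took different courses over the 4 groups. An arm's level in a library is the mean log2 CPM of its genes (CPM are counts scaled to library size, here corrected by TMM factors), set to 0 at the mean of the uninduced controls. The sterol arm stood at -0.05, -0.05 and 0.10 in the uninduced control libraries, 0.28, 0.21 and 0.24 in uninduced knockdown, 1.21, 1.20 and 1.06 in induced control and 1.75, 1.94 and 1.89 in induced knockdown. These 4 sets of values did not overlap, and their order followed that of the groups as listed. The fatty acid arm stood at 0.18, 0.08 and -0.26 in uninduced control, -0.40, -0.25 and -0.38 in uninduced knockdown, 0.38, 0.52 and 0.46 in induced control and 0.95, 0.93 and 0.95 in induced knockdown. Here uninduced knockdown lay lowest, and uninduced control replicate 3 fell just below the highest knockdown library. Without that replicate the lower fatty acid arm values of the knockdown no longer met the controls. Levels are of bulk RNA, in which fewer cells of a kind and less RNA per cell cannot be told apart. Since the genes were picked with results of these data known, the arm values carry no test.

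**Figure D1:**
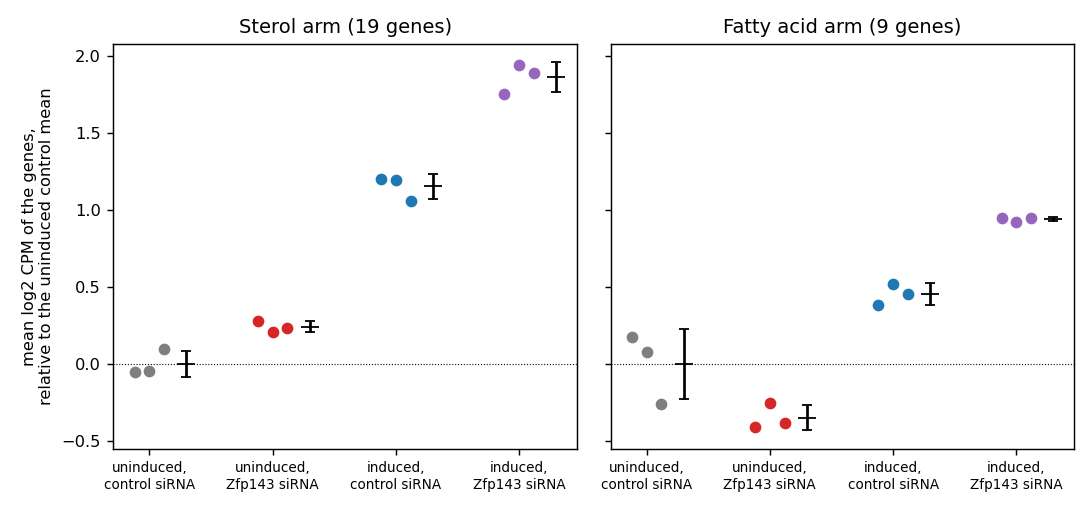
Mean log2 CPM of the sterol arm (left) and the fatty acid arm (right) in each library, relative to the mean of the uninduced control libraries. Coloured points are libraries in replicate order and black marks are the group mean ± SD (n = 3). The sterol arm was at 0.24 in uninduced knockdown and 1.86 in induced knockdown, and the fatty acid arm at -0.35 and 0.94.

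The promoters of the arms were searched for the sites through which SREBP proteins and NF-Y bind. RefSeq windows of 300 bases, 250 before and 50 after a start site on GRCm38.p6, were at hand for 26 of the 33 genes (34 windows). The genes without a window are Fdps, Fdft1, Sqle, Stard4, Scd1, Scd2 and Fads1. The NF-Y box CCAAT was searched on both strands. It was in a window of 14 of 15 sterol arm genes (93.3%) and 3 of 6 fatty acid arm genes (50%). It was also in a window of 4 of 5 regulators (80%) and of 41.1% of the 27025 genes in the table. Counted by window, these shares were 77.8%, 50%, 50% and 37.4%. The 27025 genes were not filtered on counts, while all 33 genes passed the filter, so the sets compared are unlike. The sterol arm gene without the box is Acat2, which rose with the siRNA in both states. Pmvk, Ebp, Sc5d and Dhcr7 carry it but were not called for the siRNA in induced cells. Whether these matches bear on the courses of the arms was not tested. The sterol regulatory element letters TCACNCCAC matched 1 gene, Hmgcs1, against 1.44% of all genes, and the ZNF143 site core (CCCA and ATGC with a pair of free bases between) matched 0 of the 26, against 2.17% of all genes. A match is a run of letters and not a shown binding site, and no match says only that these letters are not in the window.

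The stretches below lie upstream of the start site and carry these matches in capitals. They are shown for 3 sterol arm genes that were higher with the Zfp143 siRNA in induced cells, Hmgcs1 at chr13:119690101-119690329 (plus strand), Idi1 at chr13:8885496-8885605 (plus) and Msmo1 at chr8:64733610-64733753 (minus), and for the fatty acid arm genes Fasn at chr11:120824568-120824657 (minus) and Elovl6 at chr3:129532271-129532385 (plus). The capitals are CCAAT or its reverse complement, and in Hmgcs1 also the sterol regulatory element. In Fasn a pair of matches on opposite strands overlap, and Elovl6 has no match.
Hmgcs1: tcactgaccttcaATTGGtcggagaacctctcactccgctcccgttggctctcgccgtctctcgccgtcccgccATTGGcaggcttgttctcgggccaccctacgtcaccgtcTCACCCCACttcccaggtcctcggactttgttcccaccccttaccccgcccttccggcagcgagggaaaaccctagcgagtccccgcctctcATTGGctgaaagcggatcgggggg
Idi1: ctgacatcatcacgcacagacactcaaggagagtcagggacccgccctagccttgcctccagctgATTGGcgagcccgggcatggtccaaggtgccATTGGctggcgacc
Msmo1: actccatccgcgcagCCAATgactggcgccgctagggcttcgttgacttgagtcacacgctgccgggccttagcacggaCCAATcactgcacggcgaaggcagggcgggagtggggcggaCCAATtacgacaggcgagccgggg
Fasn: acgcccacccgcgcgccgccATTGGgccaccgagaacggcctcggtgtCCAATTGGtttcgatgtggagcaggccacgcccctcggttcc
Elovl6: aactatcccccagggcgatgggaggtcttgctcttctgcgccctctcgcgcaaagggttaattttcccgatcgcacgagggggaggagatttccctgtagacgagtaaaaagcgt

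In uninduced myoblasts fatty acid synthesis genes were lower, and part of the sterol arm higher, with the Zfp143 siRNA. Of the 9 fatty acid arm genes 5 fell and none rose, with a median log2 fold change of -0.44. Of the 19 sterol arm genes 8 rose and 1 fell, with a median of 0.23, while the median of all tested genes was -0.04. Over the 33 genes 10 were called higher (30.3%) and 6 lower (18.2%) at an edgeR adjusted p under 0.05. Of all 15030 tested genes 32.5% were called, 15.4% higher and 17.1% lower, so the share of lower calls is close to that of all genes.

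The fall was steepest at the steps that commit acetyl-CoA to fat and lengthen the chain. Elovl6, which elongates palmitate to stearate, stood at 37, 38.6 and 34.9 CPM in the control libraries and 15, 18.4 and 14.6 CPM in the knockdown libraries. All 3 knockdown libraries lay under the lowest control (log2 fold change -1.21, SE 0.148, adjusted p = 3.57e-05). Acaca, whose acetyl-CoA carboxylase makes malonyl-CoA, stood at 86.9, 90.01 and 63.1 CPM with the control siRNA and 33, 43.8 and 36.3 CPM with the Zfp143 siRNA. These ranges did not meet either (log2 fold change -1.09, SE 0.161, adjusted p = 0.000183). Fasn, the fatty acid synthase gene, was at 189.8, 172 and 113 CPM and at 99.5, 112 and 100.3 CPM, with control replicate 3 just above the highest knockdown library (log2 fold change -0.61, SE 0.198, adjusted p = 0.0296). Without that replicate its log2 fold change was -0.79. Scd1, a stearoyl-CoA desaturase, also fell (log2 fold change -0.57, SE 0.133; adjusted p = 0.00452), and Fads1, the fatty acid desaturase that forms arachidonate, did so too (-0.44, SE 0.125; 0.0141).

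Not every gene of that arm went the same way. Scd2, the paralog of Scd1, stood at 768, 643 and 558 CPM and 792, 832 and 862 CPM, so the knockdown libraries lay above the controls, but its log2 fold change of 0.34 (95% confidence interval 0.05 to 0.62) did not pass the test (adjusted p = 0.0654). It did pass with RLE size factors (0.0448), the DESeq2 Wald test (0.00729), limma-voom (0.0421), the transcript length offset (0.0421), without uninduced control replicate 1 (0.0196) and without both libraries that stand apart (0.0431). Acly, which splits citrate into acetyl-CoA, had a value of -0.24 (-0.47 to -0.01; adjusted p = 0.0988), and passed without uninduced control replicate 3 (0.0418) or both libraries that stand apart (0.00891). Fads2, a fatty acid desaturase, had 0.13 (-0.20 to 0.46) and Acss2 0.46 (0.02 to 0.89), neither past the test.

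In the sterol arm, genes at several points of the route were higher. Acat2, the cytosolic thiolase that starts the mevalonate pathway, was at 12.9, 9.66 and 12.4 CPM in control and 22.1, 22.1 and 22.5 CPM in knockdown libraries. The knockdown values were nearly alike and all above the controls (log2 fold change 0.93, SE 0.134, adjusted p = 0.000132). Tm7sf2, a sterol reductase gene, rose from 0.489, 0.604 and 0.263 CPM to 1.14, 1.004 and 1.3 CPM (log2 fold change 1.31, SE 0.341, adjusted p = 0.00735). It had the fewest counts of the 33 genes in the control libraries, which limits its precision. Stard4, which carries sterol between membranes, rose by 0.87 (SE 0.165; adjusted p = 0.00114). Smaller rises were called for Hsd17b7 (0.57), Dhcr7 (0.59) and Ebp (0.40), which act after lanosterol, and for Fdps (0.35) and Sqle (0.35). Without uninduced control replicate 3 Dhcr7 had a log2 fold change of 0.36 and lost its call (adjusted p = 0.114), as it did without both libraries that stand apart (0.35, 0.0914). Cyp51, the lanosterol demethylase, fell, with a log2 fold change of -0.47 (SE 0.161; adjusted p = 0.0344). The 10 remaining sterol arm genes had values between -0.35 (Msmo1, a sterol methyl oxidase) and 0.24 (Idi1, the isopentenyl diphosphate isomerase) and did not pass. Without both libraries that stand apart Nsdhl (log2 fold change 0.47, adjusted p = 0.0055) and Idi1 (0.41, 0.0312) were called higher, Nsdhl also without uninduced control replicate 3 alone (0.014). Among uninduced libraries Msmo1 and Cyp51 were both highest in that replicate, at 69.3 and 59.3 CPM, and without it the Cyp51 log2 fold change was -0.24 and the call was lost (adjusted p = 0.153). Without both libraries that stand apart Cyp51 was called at -0.25 (0.0271).

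Among the regulators the INSIG genes moved and the SREBP genes did not pass the test. Insig1, whose protein retains SCAP and which is itself an SREBP target, stood at 12.5, 13.8 and 14.6 CPM in control and 29.96, 34.1 and 30.7 CPM in knockdown libraries. Each knockdown library lay far above the controls (log2 fold change 1.21, SE 0.114, adjusted p = 2.85e-06). Insig2, its paralog, stood at 50.9, 51.5 and 67.7 CPM and 92.1, 82.8 and 87.5 CPM, again with no overlap (log2 fold change 0.63, SE 0.143, adjusted p = 0.00412). Srebf1, the SREBP1 gene, was at 33.8, 30.1 and 18.9 CPM and 29.6, 23 and 30.3 CPM, and the groups overlapped (95% confidence interval of the log2 fold change -0.50 to 0.50). Srebf2, the SREBP2 gene, was at 77.2, 73.7 and 57.9 CPM and 65.3, 60.4 and 69.7 CPM, and overlapped as well, though without both libraries that stand apart it was called lower (log2 fold change -0.21, adjusted p = 0.0475; with all libraries, 95% confidence interval -0.44 to 0.24). Scap was at 52.7, 44.6 and 33.3 CPM and 46.1, 41.4 and 46.2 CPM (-0.36 to 0.42), likewise with overlapping groups.

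Elovl6, Acaca, Scd1, Acat2, Tm7sf2, Stard4, Insig1 and Insig2 were called under all 15 other settings tried. The other 8 calls were each lost under 1 or more of them, at these adjusted p: Fasn at 0.0548 to 0.11; Fads1 at 0.0506 to 0.0825; Cyp51 at 0.05002 to 0.153; Dhcr7 at 0.0589 to 0.153, Ebp at 0.0528 to 0.194, Fdps at 0.0682 to 0.157, Hsd17b7 at 0.0512 to 0.0609 and Sqle at 0.066 to 0.145. The number of genes called dropped from 16 to 10 without uninduced control replicate 2 or uninduced knockdown replicate 1 or 3, and was 20 without both libraries that stand apart. Each of the 6 uninduced libraries, left out alone, ended at least 1 of these 8 calls.

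**Figure D2:**
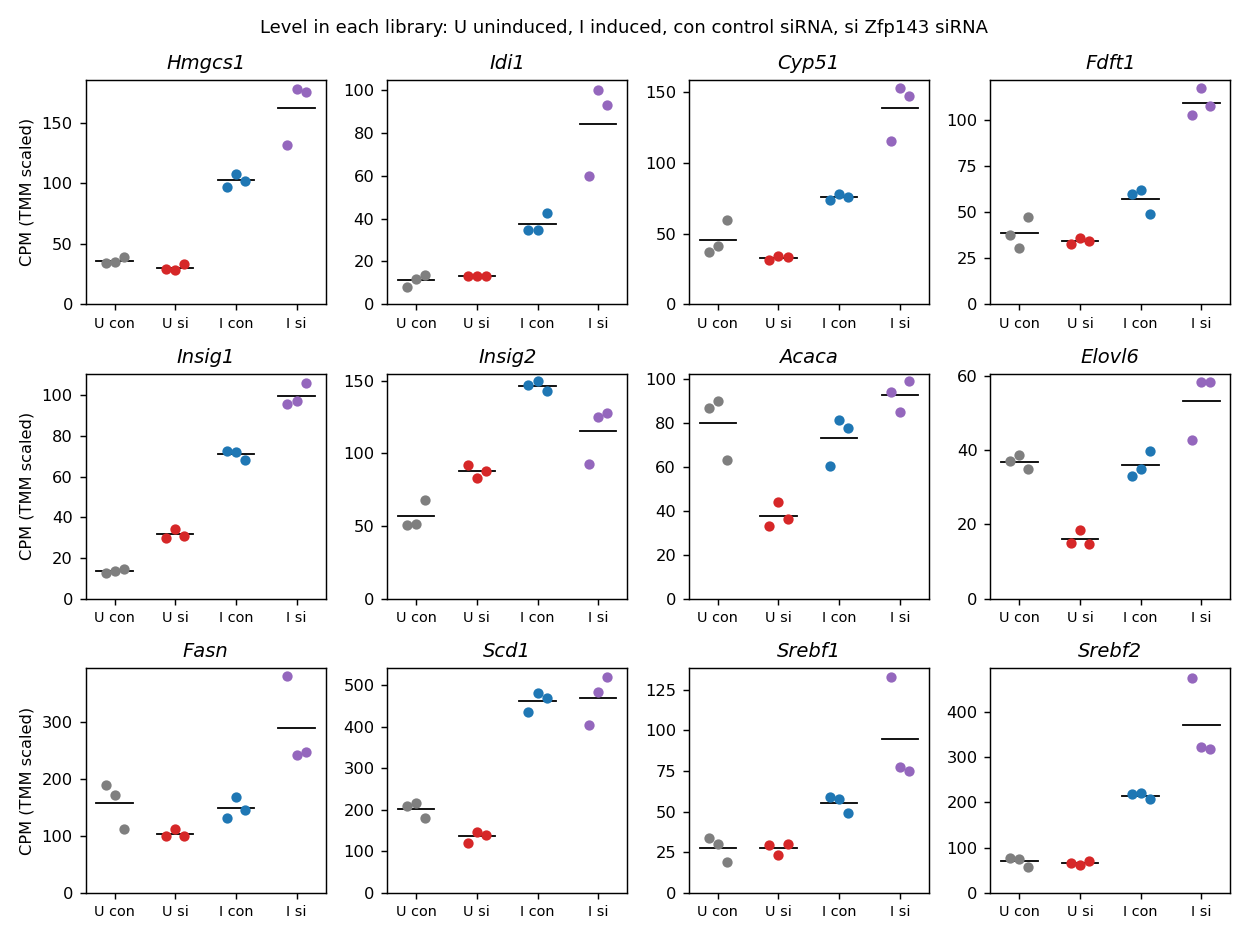
TMM-scaled CPM of 12 of the genes in each library (vertical axis, linear and from 0; the horizontal axis gives the groups, explained in the title). Points are libraries in replicate order and black lines are group means (n = 3). Elovl6 went from 36.8 to 16 CPM with the Zfp143 siRNA in uninduced cells and from 35.9 to 53.2 CPM in induced cells.

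After 5 days of induction the cells that had received the Zfp143 siRNA had higher levels of most of these genes. Of the 33 genes 24 rose (72.7%) and none fell. Among all tested genes 9.49% were called in this comparison, 3.73% higher and 5.77% lower. That background, 1427 genes, was 901 without induced control replicate 2 and 2525 without both libraries that stand apart. In the sterol arm 15 of the 19 genes rose, with a median log2 fold change of 0.84, and 6 of the 9 fatty acid arm genes, with a median of 0.57, against -0.03 over all tested genes. Of the 5 regulators 3 rose.

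Of the 7 mevalonate genes 6 rose, and so did all 3 from squalene to lanosterol. Idi1 stood at 34.7, 34.7 and 42.4 CPM in induced control and 59.7, 100.1 and 92.9 CPM in induced knockdown libraries. Its knockdown values were all above the controls, with replicate 1 the lowest (log2 fold change 1.18, SE 0.194, adjusted p = 0.000911). Acat2 was at 39.5, 41.3 and 34.9 CPM and 78.3, 87.1 and 76.6 CPM, a wide gap against the spread in either group (log2 fold change 1.06, SE 0.126, adjusted p = 4.84e-05). Fdps rose by 1.003 (SE 0.112), Mvk, the mevalonate kinase, by 0.77 (SE 0.162), Hmgcs1, the cytosolic HMG-CoA synthase, by 0.66 (SE 0.129) and Mvd, the mevalonate diphosphate decarboxylase, by 0.51 (SE 0.152). Pmvk, the phosphomevalonate kinase, had 0.54 (95% confidence interval 0.12 to 0.97) and did not pass the test (adjusted p = 0.117), though it did when scaled by library size alone (0.0476). Of the genes that make and close squalene, Fdft1 rose by 0.94, Sqle by 0.84 and Lss by 0.93.

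After lanosterol 5 of 8 genes rose. Tm7sf2 stood at 4.84, 3.69 and 2.99 CPM and 8.63, 8.66 and 9.26 CPM, with no overlap (log2 fold change 1.20, SE 0.225, adjusted p = 0.00241). Msmo1 rose by 0.91, Cyp51 by 0.87, the sterol dehydrogenase gene Nsdhl by 0.83 and Hsd17b7, a sterol ketoreductase, by 0.55. Of the late enzymes, Ebp and Dhcr7 had values below 0 and Sc5d one above. Ebp, the sterol isomerase, had -0.16 (95% confidence interval -0.46 to 0.13), Sc5d, the sterol C5 desaturase, 0.32 (0.04 to 0.61) and Dhcr7, the enzyme of the last step to cholesterol in 1 branch of the route, -0.42 (-0.79 to -0.04), none past the test. Without both libraries that stand apart Sc5d was called higher (log2 fold change 0.39, adjusted p = 0.0122) and Dhcr7 lower (-0.49, 0.0081). Stard4 rose by 0.997 (SE 0.149; adjusted p = 0.000394).

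In the fatty acid arm 6 genes rose, by 0.45 to 0.97. Fasn stood at 132, 168 and 146 CPM in control and 381, 243 and 248 CPM in knockdown libraries, with replicate 1 of the knockdown, the shallow library, far above the other two (log2 fold change 0.97, SE 0.197, adjusted p = 0.00482). Without that library Fasn had a log2 fold change of 0.72 (adjusted p = 0.0184) and Fads2 one of 0.81 (0.00286). Fads2 rose by 0.92 (SE 0.15), Scd2 by 0.75 (SE 0.132), Acly by 0.57 (SE 0.108), Elovl6 by 0.57 (SE 0.144) and Fads1 by 0.45 (SE 0.125). Elovl6 stood at 33, 34.8 and 39.8 CPM and 42.8, 58.4 and 58.3 CPM, and Acaca at 60.3, 81.2 and 77.4 CPM and 94.1, 84.7 and 98.9 CPM, with no overlap in either gene. Not past the test were Acaca at 0.34 (95% confidence interval 0.00 to 0.68), Scd1 at 0.02 (-0.26 to 0.30) and Acss2 at -0.15 (-0.51 to 0.21).

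The regulators followed the sterol arm in part. Srebf2 stood at 218, 220.0 and 206 CPM in control and 475, 321 and 318 CPM in knockdown libraries, all knockdown values above the controls (log2 fold change 0.79, SE 0.157, adjusted p = 0.0038). Srebf1 was at 59.1, 57.9 and 48.8 CPM and 133, 77.3 and 74.9 CPM (log2 fold change 0.78, SE 0.226, adjusted p = 0.042). In both genes the shallow replicate 1 was the highest knockdown library, and without it the log2 fold change was 0.46 for Srebf1 (adjusted p = 0.196) and 0.58 for Srebf2 (0.00903). Without both libraries that stand apart Srebf1 was called at 0.46 (0.00749). Insig1 was at 72.8, 72.3 and 68 CPM and 95.8, 97.4 and 106 CPM, with no overlap (log2 fold change 0.49, SE 0.108, adjusted p = 0.00766). Insig2 was at 147, 149.6 and 143 CPM and 92.3, 125 and 128 CPM, lower in each knockdown library, but its log2 fold change of -0.35 did not pass (95% confidence interval -0.65 to -0.05; adjusted p = 0.17). Scap was at 98.5, 92.4 and 86 CPM and 132, 84.9 and 86.8 CPM, and the groups overlapped (-0.25 to 0.51).

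Of the 24 calls in induced cells 18 held under all 15 other settings. The other 6 were lost under 1 or more, at these adjusted p: Fads1 at 0.0518 to 0.132, Mvd at 0.0589 to 0.204, Hsd17b7 at 0.105 to 0.166, Elovl6 at 0.0832 to 0.0981, Msmo1 at 0.0519 to 0.0925 and Srebf1 at 0.0965 to 0.196. Each of the 6 induced libraries, left out alone, ended at least 1 of these, and 19 to 21 genes were then called, all higher. The myotube markers moved the other way in these libraries: all 7 (Myog, Ckm, Acta1, Myh3, Mymk, Tnnt3 and Actn2) fell, and their summed level was 6721 to 8404 CPM in induced control and 2250.1 to 2861 CPM in induced knockdown libraries. Their part in the result was not tested.

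**Figure D3:**
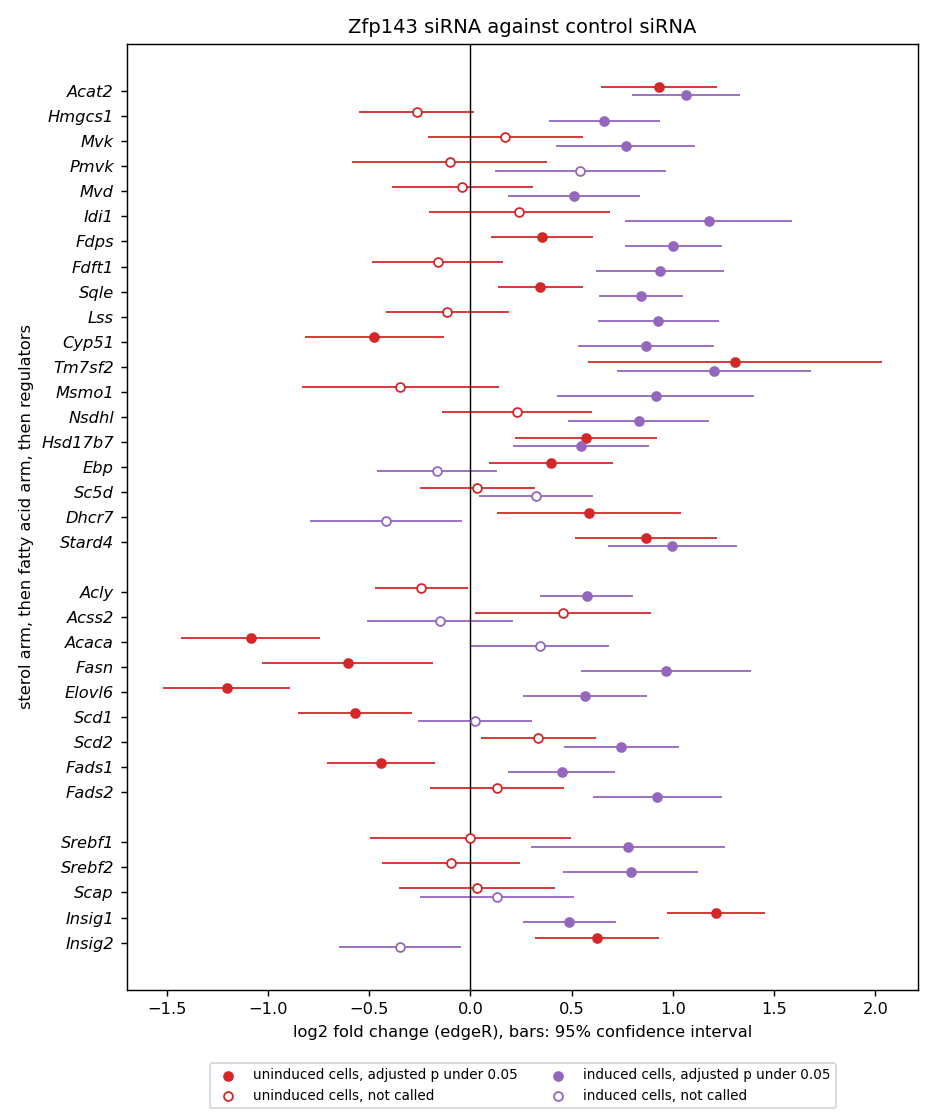
Log2 fold change of each gene with the Zfp143 siRNA against the control siRNA (horizontal axis; points are edgeR estimates and bars their 95% confidence intervals, n = 3 libraries per group), in uninduced (red) and induced cells (purple). Filled points have an adjusted p under 0.05. In induced cells 24 points are filled and all lie right of 0, and in uninduced cells 10 lie right and 6 left of it.

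The effect of the siRNA differed between the states for many of these genes, by the test of the difference itself (the interaction of siRNA and induction). It was higher in induced cells for 16 of the 33 genes (48.5%) and lower for 3 (9.09%). Over all tested genes 22.5% were called (3375 genes, and 5755 without both libraries that stand apart), 10.6% higher and 11.8% lower. The fatty acid arm had 7 of 9 genes higher, with a median difference of 0.82, and the sterol arm 8 of 19 higher and 1 lower, with a median of 0.59. Elovl6 had the largest difference among the 33, 1.77 (SE 0.206; adjusted p = 3.36e-05), then Fasn with 1.57 (SE 0.28; 0.00113) and Acaca with 1.43 (SE 0.226; 0.000448). Cyp51 (1.34), Msmo1 (1.26), Fdft1 (1.10) and Lss (1.04) led the sterol arm. The effect went from lower in uninduced to higher in induced cells, both called, in 4 genes, namely Cyp51, Fasn, Elovl6 and Fads1. Their 4 differences were also called, which adds no separate support, since each is computed from those same effects. Each gene lost a call under some other settings. These were the uninduced calls of Cyp51, Fasn and Fads1 and the induced calls of Elovl6 and Fads1.

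Dhcr7 stood at 4.62, 3.46 and 2.17 CPM in uninduced control, 5.71, 5.02 and 4.8 CPM in uninduced knockdown, 29.8, 32.2 and 31.1 CPM in induced control and 25.6, 21 and 23.2 CPM in induced knockdown libraries, so that the knockdown was higher before and lower after induction on average. The difference in its siRNA effect was called in the opposite direction to the 16 genes above, with a difference of -1.002 (SE 0.277; adjusted p = 0.0173), from 3.41 ± 1.23 CPM and 5.18 ± 0.472 CPM in uninduced control and knockdown cells to 31 ± 1.19 CPM and 23.3 ± 2.29 CPM in induced ones (SD, n = 3). The same direction was called for Insig2 with -0.98 (SE 0.202; 0.00323) and Insig1 with -0.72 (SE 0.157; 0.00426). Of the SREBP genes, Srebf2 had a difference of 0.89 (SE 0.224; 0.0109), while Srebf1 with 0.78 (95% confidence interval 0.09 to 1.47) did not pass the test (0.1003), though it did without uninduced control replicate 3 (0.0143), without both libraries that stand apart (0.00413) and with no filter on low counts (0.0056). For Acat2 (-0.26 to 0.52), Tm7sf2 (-0.98 to 0.77), Hsd17b7 (-0.51 to 0.46) and Stard4 (-0.34 to 0.60), which rose in both states, the intervals of the difference include 0. The calls of Idi1 at 0.05002 to 0.0753, Scd1 at 0.0505 to 0.101, Dhcr7 at 0.0512 to 0.0542 and Sqle at 0.122 were lost under some of the 20 other settings (adjusted p). For Idi1 and Scd1 9 of the 12 libraries each ended the call when left out. These were for Idi1 all but uninduced control replicate 1, induced control replicate 3 and induced knockdown replicate 1, and for Scd1 all but uninduced control replicate 3, uninduced knockdown replicate 2 and induced knockdown replicate 1. For Dhcr7 it was uninduced knockdown replicate 1. Genes called for a difference under other settings but not in the main test were Ebp, Nsdhl, Mvk, Scd2 and Srebf1.

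Myogenic induction with the control siRNA raised most of the sterol arm, while most fatty acid arm genes did not pass the test. In the sterol arm 15 of 19 genes rose and none fell, with a median log2 fold change of 1.25. In the fatty acid arm 3 rose, 1 fell and 5 did not pass, with a median of -0.06, and all 5 regulators rose. Over the 33 genes 69.7% were called higher and 3.03% lower, against 33.2% and 30.9% of all tested genes, of which 64.1% were called in all. When scaled by library size alone, the median of all genes moved from 0.03 to 0.21, that of the fatty acid arm turned to 0.10, and 23 of the 33 genes rose and none fell.

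Dhcr7 rose from 4.62, 3.46 and 2.17 CPM in uninduced to 29.8, 32.2 and 31.1 CPM in induced control libraries, the largest change of the 33 genes (log2 fold change 3.17, SE 0.1996, adjusted p = 3.23e-09). Tm7sf2 went from 0.489, 0.604 and 0.263 CPM to 4.84, 3.69 and 2.99 CPM (log2 fold change 3.04, SE 0.317, adjusted p = 3.53e-07). All 7 genes from Acat2 to Fdps rose, by 0.77 (Mvd) to 1.99 (Fdps). Fdft1 rose by 0.57, while Sqle had -0.12 (95% confidence interval -0.33 to 0.09), Lss -0.005 (-0.31 to 0.30), Sc5d -0.17 (-0.45 to 0.12) and Msmo1 -0.52 (-1.01 to -0.04), none past the test. Msmo1 was called lower with the transcript length offset (adjusted p = 0.0391), with no filter on low counts (0.00243) and without uninduced control replicate 1 (0.00747) or 2 (0.0325), and Sc5d with the length offset (0.0177).

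In the fatty acid arm Acss2 rose from 3.04, 2.69 and 1.84 CPM to 14.2, 16.8 and 13.3 CPM (log2 fold change 2.54, SE 0.191, adjusted p = 2.08e-08). Fads2 rose by 1.26 and Scd1 by 1.20. Acly fell, from 168, 166 and 151 CPM to 117, 129.8 and 125 CPM (log2 fold change -0.39, SE 0.108, adjusted p = 0.0058), a call lost when scaled by library size alone (adjusted p = 0.186). The 5 genes that did not pass include the core enzymes of chain building: Fasn had -0.09 (95% confidence interval -0.51 to 0.33), Acaca -0.13 (-0.47 to 0.21), Elovl6 -0.04 (-0.35 to 0.27), Scd2 -0.06 (-0.34 to 0.23) and Fads1 -0.28 (-0.54 to -0.01). Without uninduced control replicate 3 Fads1 was called lower (adjusted p = 0.00108), and without both libraries that stand apart Fasn was too (0.0146). Of the regulators, Insig1 rose by 2.38, Srebf2 by 1.62, Insig2 by 1.37, Scap by 1.08 and Srebf1 by 0.999.

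With the Zfp143 siRNA, induction raised 32 of the 33 genes and none fell, 97.0% against 36.0% of all tested genes called higher and 30.1% called lower (66.1% in all). The median log2 fold change was 1.85 in the sterol arm and 1.48 in the fatty acid arm, and all 9 genes of the latter rose. Tm7sf2 went from 1.14, 1.004 and 1.3 CPM to 8.63, 8.66 and 9.26 CPM (log2 fold change 2.94, SE 0.256, adjusted p = 1.19e-07). Idi1 went from 13.3, 13.2 and 13.1 CPM to 59.7, 100.1 and 92.9 CPM (log2 fold change 2.68, SE 0.2003, adjusted p = 3.53e-08), and Fdps from 25.8, 25.2 and 24.3 CPM to 148, 172 and 147 CPM (log2 fold change 2.63, SE 0.114, adjusted p = 9.21e-11). In each of these genes the groups lay far apart. Among the fatty acid genes Elovl6 rose by 1.74, Fasn by 1.48 and Acaca by 1.30, beside the -0.04, -0.09 and -0.13 given above for the control siRNA. Sc5d was the gene that did not pass, at 0.12 (95% confidence interval -0.16 to 0.41), except when scaled by library size alone (0.0191), which also moved the median of all genes from 0.10 to 0.35. The calls of Scd2, with 0.35, and Insig2, with 0.39, were lost under some settings (adjusted p: Scd2 at 0.054 to 0.0968 and Insig2 at 0.062 to 0.0992). Both were lost without uninduced knockdown replicate 2 or 3 and without induced knockdown replicate 2 or 3, and Scd2 also without uninduced knockdown replicate 1. The induction and the knockdown comparisons share their groups of libraries, so their values are not independent.

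**Figure D4:**
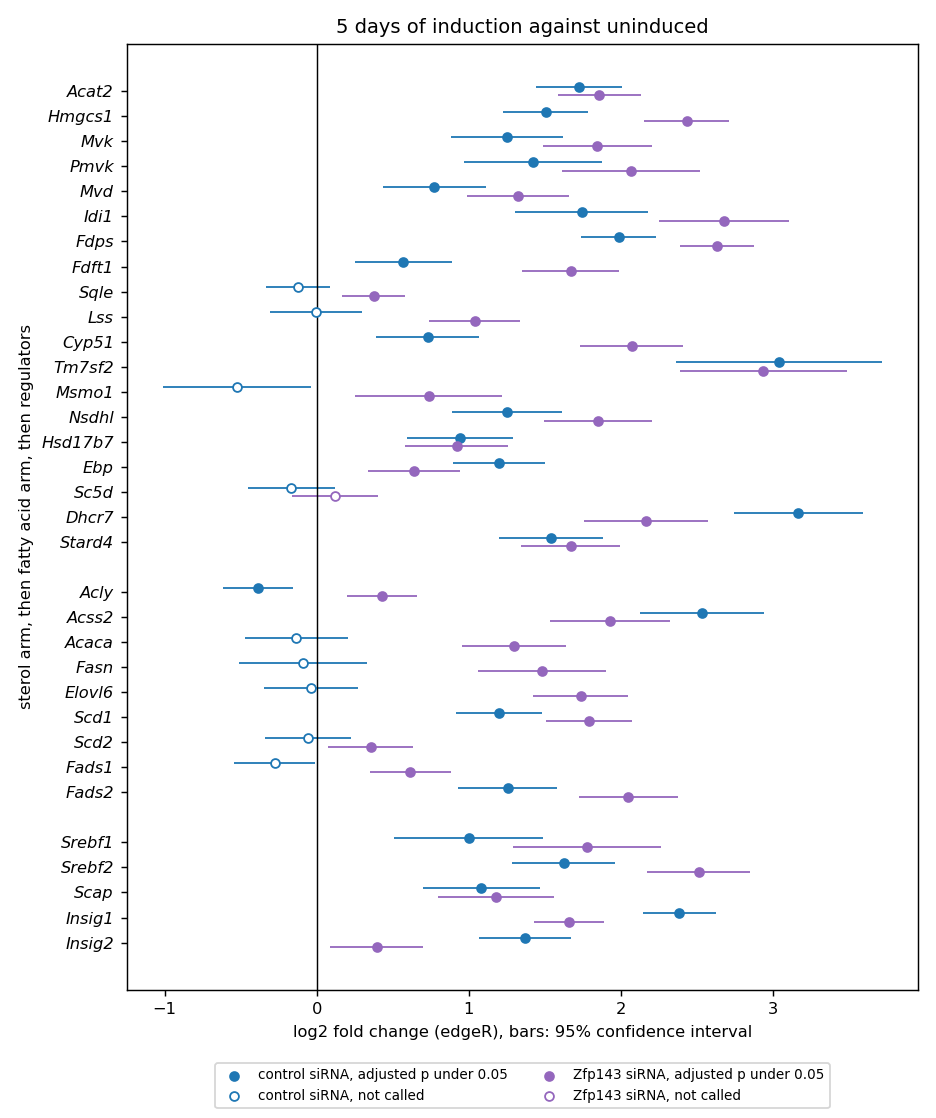
Log2 fold change of each gene with 5 days of induction (horizontal axis; points are edgeR estimates and bars their 95% confidence intervals, n = 3 libraries per group) in cells with the control siRNA (blue) and the Zfp143 siRNA (purple). Filled points have an adjusted p under 0.05. With the control siRNA 5 of 9 fatty acid arm points are open, and with the Zfp143 siRNA all 9 are filled.

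Genes next to these pathways were counted from lists written beside the 33, for the knockdown in induced cells first. Of the non-sterol branch of mevalonate, which makes prenyl groups, ubiquinone and dolichol, 0 of 13 genes rose or fell. Cholesterol export, storage and LXR genes, which respond to excess sterol, also had 0 of 14 called in either direction (medians of -0.01 and 0.02). With 9.49% of all tested genes called in this comparison, counts of 0 in lists of this size lie near the background. By edgeR's unadjusted p under 0.05 there were 0 and 1 genes in these lists, and both limma-voom and DESeq2 called 0 in each. Of the SREBP processing and turnover genes 1 of 13 rose, namely Rnf145, a ubiquitin ligase gene (0.39, SE 0.108). Of 25 genes of fatty acid activation and lipid assembly 1 rose, the malic enzyme gene Me1 (0.40, SE 0.119), and 1 fell, Hacd1, a muscle gene of fatty acid elongation (-0.80, SE 0.155). Of 15 fatty acid oxidation genes none rose and 3 fell, with Acadl, the long-chain acyl-CoA dehydrogenase, at -1.14 (SE 0.105).

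In uninduced cells, where 15.4% of all tested genes were called higher and 17.1% lower, the same lists were counted. Of the SREBP processing and turnover genes 2 of 13 rose, with Ubxn8 at 1.02 (SE 0.128). In that list 5 fell, with Erlin1, which takes part in the turnover of endoplasmic reticulum proteins, at -1.03 (SE 0.136). Of the lipid assembly genes 3 of 25 rose and 6 fell, and Acsl1, a long-chain acyl-CoA synthetase, fell most clearly (-1.14, SE 0.128). Of the export, storage and LXR genes 3 of 14 rose and 2 fell: Npc2, a lysosomal cholesterol carrier, was at 1.52 (SE 0.158) and Ch25h, which makes an oxysterol from cholesterol, at -2.84 (SE 0.542). In the non-sterol branch 1 of 13 rose and 1 fell, and in fatty acid oxidation 2 of 15 rose and 1 fell.

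For induction with the control siRNA the shares over all tested genes are 33.2% higher and 30.9% lower, and several of these lists lie near them. Of 15 fatty acid oxidation genes 10 rose and none fell, with Cpt1a, which admits fatty acids to mitochondria, at 1.90 (SE 0.117). Of 14 export, storage and LXR genes 9 rose and 2 fell, and Mylip, an LXR target, was at 1.75 (SE 0.134). Lipid assembly genes split into 12 of 25 higher and 9 lower, led by Hacd1 (2.39, SE 0.162) and by the lipid droplet gene Plin2 (-2.98, SE 0.19). Of the SREBP processing genes 4 of 13 rose, with Mbtps1, a Golgi protease that cuts SREBP, at 0.88 (SE 0.135). In that list 5 fell, with Erlin1 at -2.75 (SE 0.137), and the median was -0.13. Mean Mbtps2, in the same list, was 106 CPM in uninduced control and 51.2 CPM in induced control libraries. The non-sterol branch had 1 of 13 higher and 5 lower. With the Zfp143 siRNA, where 36.0% of all tested genes were called higher and 30.1% lower, the counts higher and lower were 7 and 1 for oxidation, 8 and 3 for export, storage and LXR, 13 and 7 for lipid assembly, 4 and 6 for SREBP processing and 1 and 5 for the non-sterol branch.

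Adipocytes also make fat, and C2C12 cells can take other fates, so markers of further cell types were read in the same libraries. Of 10 adipocyte markers 3 (Lpl, Pparg and Cebpa) passed the filter on low counts. Lep, Retn and Cfd had no counts in any of the 4 groups, and Adipoq had none in uninduced cells and at most 0.0699 CPM on average in induced ones. The summed level of the list was 308 to 327 CPM in uninduced control, 257 to 278 CPM in uninduced knockdown, 434 to 496 CPM in induced control and 486 to 582 CPM in induced knockdown libraries, nearly all of it Lpl, which muscle cells express too. Cebpa rose with the siRNA in uninduced (0.58, SE 0.181) and induced cells (0.70, SE 0.173). Pparg and Lpl did not pass, at -0.33 (SE 0.154) and -0.30 (SE 0.126) in uninduced and -0.07 (SE 0.156) and 0.18 (SE 0.126) in induced cells. Of 8 fibroblast and smooth muscle markers 5 passed the filter. Their sum was 72.9 to 84.7 CPM in uninduced control, 132 to 136 CPM in uninduced knockdown, 3517 to 4007 CPM in induced control and 2242 to 2500.1 CPM in induced knockdown libraries, led by Pdgfra before and Acta2 after induction. Macrophage markers lay between 18.2 and 39.2 CPM in sum, most of it Cd14, and 4 of 6 passed the filter. In uninduced cells 2 of them rose with the siRNA, Cd68 from a mean of 1.52 to 5.71 CPM (log2 fold change 1.91, SE 0.324) and Csf1r from 0.57 to 3.44 CPM (2.54, SE 0.497). In induced cells Cd14 rose (0.62, SE 0.162), but it was the only 1 of the 4 with a value above 0, and their median was -0.26. Mean Cd68 was 1.36 CPM in induced control and 1.26 CPM in induced knockdown libraries, and mean Csf1r 1.71 and 1.27 CPM. Adgre1 had no counts in any library. The part of these cell type markers in the results was not tested.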

How the data were processed

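Polyadenylated RNA of 12 C2C12 libraries (3 per group) was sequenced without strand. The deposited estimated counts per gene came from reads handled with fastp 1.0.1, STAR 2.7.11b and Salmon (version not given in the sources used here) on GRCm39, per the submitters' processing notes. The authors' scaled TPM score columns, deposited beside the counts, gave levels per length, and the deposited effective lengths served in an offset. Here 535 repeated lines were dropped, estimated counts rounded, and genes kept by edgeR's filter (minimum count 10, minimum total 15), leaving 15030 of 78275 IDs. edgeR 4.0.16 (R 4.3.3) fitted all 4 groups by quasi-likelihood with TMM scaling, and p-values were adjusted by Benjamini-Hochberg over all tested genes (threshold 0.05). Log2 CPM used a prior count of 2. The comparisons were the siRNA in each state, induction with each siRNA, and their interaction. The test was checked on simulated data.

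The 33 genes and the other lists were chosen with earlier results of these data known. Every one of the 33 may be named, and values in each library are given for the 5 regulators and, per comparison, for the 3 called genes of largest change in each direction with at least 1 CPM in the higher group. Of each other list the called gene of smallest p in each direction could be named. Fasn, Scd2 and Mbtps2, and the markers Myf5, Myod1, Pparg, Cd68, Csf1r, Cd14 and Adgre1, were added after their values were seen. Alternatives were RLE factors, library size alone, no filter, DESeq2 1.42.0, limma-voom (limma 3.58.1), a length offset, a replicate block, only the groups compared, and leaving out libraries. No pair of libraries held identical counts (0 pairs). FPKM columns were not used.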

Additional observations from a re-analysis of the deposited data

Results flagged for a closer look

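The effect of the Zfp143 siRNA differed between induced and uninduced cells by the interaction test (edgeR adjusted p under 0.05) for 19 of the 33 genes, and the log2 differences, induced minus uninduced, follow. In the fatty acid arm it was higher in induced cells for Elovl6 (1.77), Fasn (1.57), Acaca (1.43), Fads1 (0.89), Acly (0.82), Fads2 (0.79) and Scd1 (0.59). In the sterol arm it was higher for Cyp51 (1.34), Msmo1 (1.26), Fdft1 (1.10), Lss (1.04), Idi1 (0.94), Hmgcs1 (0.93), Fdps (0.65) and Sqle (0.50), and lower for Dhcr7 (-1.002). Among the regulators it was higher for Srebf2 (0.89) and lower for Insig2 (-0.98) and Insig1 (-0.72). For Zfp143 itself the log2 difference by the same test was 1.22 (adjusted p = 0.00358). Its log2 fold change with the siRNA was -1.41 in uninduced cells and -0.18, not called, in induced cells. Uninduced control replicate 3, which stands apart, was its highest uninduced control. The part of Zfp143 in the values of the 19 genes was not tested.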

How the results depend on the processing

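The number of genes called out of 33 stayed within 1.5 times the main count in each comparison, with 1 exception. For the knockdown in uninduced cells it was 16, and leaving out single libraries gave 10 to 16, with 10 called without uninduced control replicate 2 or uninduced knockdown replicate 1 or 3. Leaving out single libraries gave 19 to 21 for the knockdown in induced cells, 24 to 25 and 30 to 32 for induction with the control and the Zfp143 siRNA, and 16 to 22 for the difference between the states. The sterol arm median minus the fatty acid arm median was 0.67 for the knockdown in uninduced cells (0.515 to 0.889 over all settings), 0.27 in induced cells (0.260 to 0.351), 1.31 for induction with the control siRNA (1.13 to 1.48), 0.36 with the Zfp143 siRNA (0.203 to 0.522) and -0.22 for the difference between the states (-0.404 to -0.162), and no called value of the 33 genes changed sign. Between replicate libraries of a group, the sterol minus fatty acid arm level had an SD of 0.276. All settings reuse the same libraries, so their ranges do not measure that spread.

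Replicate numbers were not taken to pair libraries: deviations from group means correlated at -0.0963 to 0.306 for the same number and at -0.279 to 0.249 for different numbers. With the replicate block 15, 23, 24, 32 and 19 genes were called in the 5 comparisons, and the block ended the calls of Ebp (knockdown, uninduced, adjusted p = 0.0567) and Mvd (knockdown, induced, 0.0589). The fit on only the groups compared gave no value for the difference between the states, which needs all 4 groups. Sensitivity was limited by 3 libraries a group. In simulated counts of 15030 genes for the knockdown in uninduced cells, 50 genes were changed at each size and 14830 were left unchanged. There 16% of genes changed by a log2 of 0.5 and 58% of those changed by 1 were called, so small changes can be missed. In the data 32.5% of genes were called, and the adjusted p is stricter when fewer genes change. The simulated shares can thus be too low and do not give the sensitivity in these data. Arm differences under no filter, DESeq2, limma-voom, the length offset, the block, only the groups compared and without both libraries that stand apart were added after seeing the data.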
